A study of Mus musculus with 8 samples.

Results

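Claudins are the membrane proteins of the tight junction that decide which ions, and whether water, may pass between epithelial cells. Each stretch of the nephron carries its own set, so the paracellular route is leaky in the proximal tubule, selective for cations in the thick ascending limb and tight in the collecting duct. Some claudins form pores, some form barriers, and several work only with a partner. The 10 claudins described here, Cldn1, Cldn2, Cldn3, Cldn4, Cldn7, Cldn8, Cldn10, Cldn14, Cldn16 and Cldn19, are a list of genes named for their known place along the kidney tubule. They are 10 of the 18217 named genes on the array.

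RNA of whole kidneys from mice aged 8 weeks was measured on 8 one-colour Agilent arrays, 1 mouse to an array. The study asked how the kidney changes when Keap1, the protein that marks the transcription factor Nrf2 for degradation, is lost. The 4 NEKO mice were Keap1-/-::Nrf2Flox/Flox::K5-Cre. Of the 4 control littermates, 1 female (replicate 1) was Keap1+/-::Nrf2Flox/Flox, called K1, and the other 3 were Keap1+/-::Nrf2Flox/Flox::K5-Cre, called K1Cre. Every mouse therefore carried floxed Nrf2 alleles, every control lacked 1 Keap1 allele, and all shared a mixed 129Sv/J and C57BL/6J background. K5-Cre runs from the Keratin5 promoter in squamous epithelium, so it removes Nrf2 there, which lets Keap1-null mice live, and is not directed at the tubule. Each group held 2 females and 2 males. The slides divided the mice by sex, with 2 NEKO and 2 control mice on each, and an effect of sex therefore cannot be told apart from one of slide.

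Levels are log2 of the scanner's processed intensity less the 75th percentile of the same array, so a level of 0 is the 75th percentile of the probes. Levels compare mice at 1 probe. They do not rank 1 gene against another. The fit was limma with group and sex as terms, and a gene was called at a Benjamini-Hochberg adjusted p under 0.05 over all 19594 features tested. The targeted gene carried its label in every mouse, with Keap1 at 1.84 ± 0.07 (SD, n = 4) in control and 0.20 ± 0.17 (SD, n = 4) in NEKO kidneys (adjusted p = 0.0046 by limma). The scanner marked 61.8% to 65.7% of the probes of an array as well above background. Mice within a group are separate animals.

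None of the 10 claudins was called. Over all named genes tested, limma called 0.28% (38 of 13571), of which 15 were higher and 23 lower. At an unadjusted p under 0.05 limma placed 3 of the 10 claudins, Cldn4 higher and Cldn8 and Cldn10 lower in NEKO kidneys. That threshold is passed by 18.3% of named genes (8.14% higher and 10.2% lower). All 10 claudins passed as well above background on every one of the 8 arrays. The 95% interval of each difference lay within 2-fold in either direction, as did that of 86.9% of named genes. For 5 of the 10 the interval also lay within 1.5-fold, for which no share over all named genes was computed. The fitted difference was above 0 for 4 claudins and below 0 for 6, with a median of -0.05 against -0.02 over all named genes. The median size without regard to sign was 0.20 on the log2 scale for the claudins and 0.14 for all named genes.

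**Figure D1:**
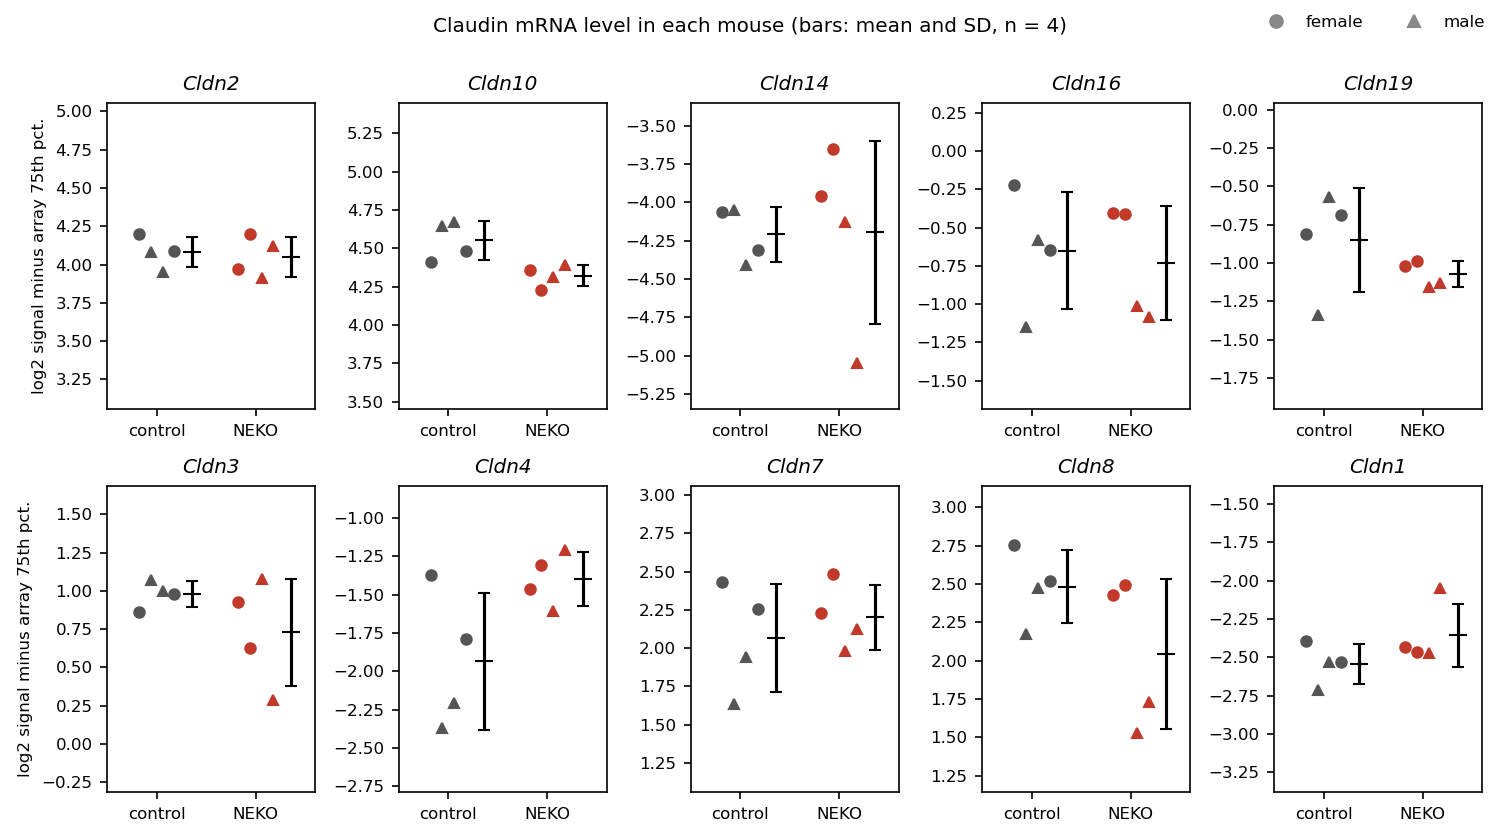
Level of each listed claudin in each mouse, as log2 intensity less the array's 75th percentile (vertical axis), with circles for females, triangles for males, and a bar for the mean and SD of each group (n = 4). The panels share a span but not a position, so heights compare mice within a panel only, and Cldn10 is the panel where all 4 NEKO mice (4.23 to 4.39) lie below all 4 controls (4.41 to 4.67).

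The plot of levels by mouse shows that for 9 of the 10 claudins the NEKO and control mice overlapped. Cldn10 was the exception. The share of named genes whose groups do not overlap was 9.58%, made up of 5.09% with every NEKO mouse below every control and 4.49% with every NEKO mouse above. Because these are whole kidneys, fewer cells of a type and less RNA in each cell cannot be told apart at any value given here.

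The claudins of the proximal tubule come first along the nephron. Cldn2 forms the channel for sodium and water in the leaky junctions of the proximal tubule. Its level was 4.20 and 4.09 in the control females, 4.08 and 3.95 in the control males, 3.97 and 4.20 in the NEKO females, and 3.91 and 4.12 in the NEKO males. Control and NEKO mice were interleaved in both sexes. The fitted log2 difference was -0.03 (SE 0.09, 95% interval -0.24 to 0.18, adjusted p = 0.88 by limma). That interval corresponds to between 0.847 and 1.13 times the control level. An exact two-sided permutation test of the group means gave p = 0.743. Cldn2 had one of the narrower intervals of the list. The 8 proximal tubule markers, all tested, had a median difference of 0.11. Their mean level ran from 5.34 to 5.49 in control and from 5.54 to 5.77 in NEKO kidneys. Of the 8, 6 were fitted above 0 and none was called. The dicarboxylate transporter gene Slc13a3 was at 0.97 (SE 0.23), the anion transporter gene Slc22a8 at 0.82 (SE 0.27) and the glucose transporter gene Slc5a2 at -0.43 (SE 0.10). For these 3 the groups did not overlap, as for 9.58% of named genes.

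Cldn10 is made in forms that differ in their first exon, an anion channel of the proximal tubule and a cation channel of the thick ascending limb that carries sodium between cells. The probe is assigned to NM_021386, and the sources used here do not tell which form it reads. Its level was 4.41 and 4.48 in the control females, 4.65 and 4.67 in the control males, 4.36 and 4.23 in the NEKO females, and 4.31 and 4.39 in the NEKO males. Every NEKO mouse lay below every control, though control replicate 1 and NEKO replicate 6 were almost level. The fitted log2 difference was -0.23 (SE 0.07, 95% interval -0.40 to -0.06), or 0.852 times the control level, with an adjusted p of 0.19 by limma. The exact two-sided permutation test gave p = 0.0286, the smallest that 4 mice against 4 can give. The difference was -0.15 within the females and -0.31 within the males.

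RefSeq gives Cldn10 start sites in different places on GRCm38.p6, and the 250 bases before each are shown because the forms of Cldn10 arise from them. The first is chr14:118787621-118787870 on the plus strand and the second is chr14:118854700-118854949 on the plus strand.
Cldn10 first start: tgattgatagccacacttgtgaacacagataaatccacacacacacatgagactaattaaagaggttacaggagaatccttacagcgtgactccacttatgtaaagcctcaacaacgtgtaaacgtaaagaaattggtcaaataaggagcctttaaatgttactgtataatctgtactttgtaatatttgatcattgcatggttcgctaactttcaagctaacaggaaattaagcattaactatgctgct
Cldn10 second start: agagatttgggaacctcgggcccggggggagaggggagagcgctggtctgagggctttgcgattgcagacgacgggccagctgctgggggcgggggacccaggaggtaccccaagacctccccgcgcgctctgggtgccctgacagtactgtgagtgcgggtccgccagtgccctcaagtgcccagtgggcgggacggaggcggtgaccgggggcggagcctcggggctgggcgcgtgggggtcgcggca
The first stretch is rich in A and T, with 36% G and C, and the second holds 72.4% G and C. Neither holds a capital, since no base in them matched a motif searched for below. The array gave 1 level for the gene, so no value can be assigned to either start.

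The thick ascending limb reabsorbs calcium and magnesium through a paracellular pore built from Cldn16 and Cldn19, and loss of either gene in people causes urinary wasting of both ions. Cldn16 stood at -0.22 and -0.65 in the control females, -1.15 and -0.58 in the control males, -0.40 and -0.41 in the NEKO females, and -1.01 and -1.09 in the NEKO males. The lowest and the highest mouse were both controls. Its fitted difference was -0.08 (SE 0.15, 95% interval -0.44 to 0.28, adjusted p = 0.81 by limma). Cldn19 stood at -0.81 and -0.68 in the control females, -1.34 and -0.57 in the control males, -1.02 and -0.99 in the NEKO females, and -1.16 and -1.13 in the NEKO males. Control replicate 4 was the lowest of all 8 mice and the other 3 controls were above every NEKO mouse. The fitted difference was -0.22 (SE 0.16, 95% interval -0.60 to 0.15, adjusted p = 0.48 by limma). A second Cldn19 probe, assigned to another transcript, gave -0.23 (SE 0.21). The pore partners were also set against each other within each array. The log2 difference Cldn16 minus Cldn19 was 0.20 ± 0.27 (SD, n = 4) in control and 0.34 ± 0.29 (SD, n = 4) in NEKO kidneys, and the groups overlapped. Such a pair value carries the response of both probes, so only its shift between groups has a meaning.

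Cldn14 closes the Cldn16 and Cldn19 pore and is induced by the calcium-sensing receptor of the same cells. Its level was -4.06 and -4.31 in the control females, -4.05 and -4.41 in the control males, -3.96 and -3.65 in the NEKO females, and -4.13 and -5.05 in the NEKO males. NEKO replicate 6 was the lowest mouse and NEKO replicate 3 the highest. The fitted difference was 0.01, with the widest interval of the 10 claudins, -0.58 to 0.60 (adjusted p = 0.99 by limma). It was 0.38 within the females and -0.36 within the males, and the sex difference was -0.74 (SE 0.45, adjusted p = 0.64 by limma's interaction term). Cldn14 minus Cldn16 within each array shifted by 0.09 between the groups, which overlapped.

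Of the 8 markers listed for the thick ascending limb, 7 were tested. Their median difference was -0.27, and 3 of the 7 passed an unadjusted p under 0.05, all lower, while none was called. Over all named genes tested, 10.2% were lower at that threshold. The 3 markers were Egf at -0.96 (SE 0.33), the prostaglandin receptor gene Ptger3 at -0.75 (SE 0.23) and the potassium channel gene Kcnj1 at -0.55 (SE 0.17). Within the females these 3 differed by -0.16, -0.19 and -0.15, and within the males by -1.76, -1.31 and -0.94. The mean marker level was 3.03 to 3.46 in control and 2.22 to 3.42 in NEKO kidneys. The part of segment markers in the values of Cldn10, Cldn14, Cldn16 and Cldn19 was not tested.

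Of the claudins of the distal nephron and collecting duct, Cldn8 and Cldn4 are known as partners that let chloride pass between principal cells, with Cldn8 needed to place Cldn4 in the junction. Cldn8 stood at 2.76 and 2.52 in the control females, 2.18 and 2.47 in the control males, 2.43 and 2.49 in the NEKO females, and 1.53 and 1.73 in the NEKO males. Within each sex both NEKO mice were below both controls, but the NEKO females lay within the range of the male and female controls together. The fitted log2 difference was -0.44 (SE 0.14, 95% interval -0.77 to -0.10, adjusted p = 0.20 by limma), or 0.739 times control. An exact two-sided permutation test that took no account of sex gave p = 0.171. Of the 10 listed claudins, Cldn8 and Cldn10 were the 2 whose groups separated in the same direction in both sexes, which 18.3% of named genes did.

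Cldn4 ran the other way. Its level was -1.37 and -1.79 in the control females, -2.37 and -2.21 in the control males, -1.46 and -1.31 in the NEKO females, and -1.61 and -1.21 in the NEKO males. The NEKO males were above both male controls, while the female groups overlapped, with control replicate 1 (K1, without K5-Cre) between the NEKO females. The fitted log2 difference was 0.54 (SE 0.18, 95% interval 0.10 to 0.97), or 1.45 times control, with an adjusted p of 0.21 by limma. The exact two-sided permutation test gave p = 0.0857. The mean of the males less that of the females was -0.71 among the controls and -0.03 among the NEKO mice.

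The chloride partners differed in opposite directions, so their ratio differed by more than either gene. Cldn4 minus Cldn8 within each array was -4.42 ± 0.25 (SD, n = 4) in control and -3.44 ± 0.47 (SD, n = 4) in NEKO kidneys. The control mice ran from -4.68 to -4.13 and the NEKO mice from -3.89 to -2.94, so the groups did not overlap. For the other pairs set side by side here they did overlap, and no share over all gene pairs was computed. The shift of 0.97 is given as a description, since the pair was set side by side with the direction of both genes known. It pools the sexes. Cldn4 and Cldn8 differed by 0.88 and -0.70 within the males and by 0.20 and -0.18 within the females.

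Cldn3 is a sealing claudin of the distal segments. Its level was 0.86 and 0.98 in the control females, 1.07 and 1.00 in the control males, 0.92 and 0.62 in the NEKO females, and 1.08 and 0.29 in the NEKO males. The controls were close together, and NEKO replicates 3 and 6 were below them. Its fitted difference was -0.25 (SE 0.18, 95% interval -0.66 to 0.17, adjusted p = 0.48 by limma). Cldn7 is found along the basolateral side as well as the junctions of distal tubule and collecting duct cells. It stood at 2.43 and 2.26 in the control females, 1.63 and 1.95 in the control males, 2.23 and 2.48 in the NEKO females, and 1.98 and 2.12 in the NEKO males. Females were above males in both groups, and NEKO and control mice overlapped in the females but not in the males. The fitted difference was 0.14 (SE 0.12, 95% interval -0.14 to 0.41, adjusted p = 0.55 by limma).

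Cldn1, a barrier claudin found in the parietal cells of Bowman's capsule, was at -2.40 and -2.53 in the control females, -2.71 and -2.53 in the control males, -2.43 and -2.46 in the NEKO females, and -2.47 and -2.05 in the NEKO males. NEKO replicate 6 stood above the other 7 mice. The fitted difference was 0.19 (SE 0.13, 95% interval -0.11 to 0.49, adjusted p = 0.46 by limma), and a second Cldn1 probe gave 0.23. On that probe NEKO replicate 5 (-1.99) was above replicate 6 (-2.20).

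**Figure D2:**
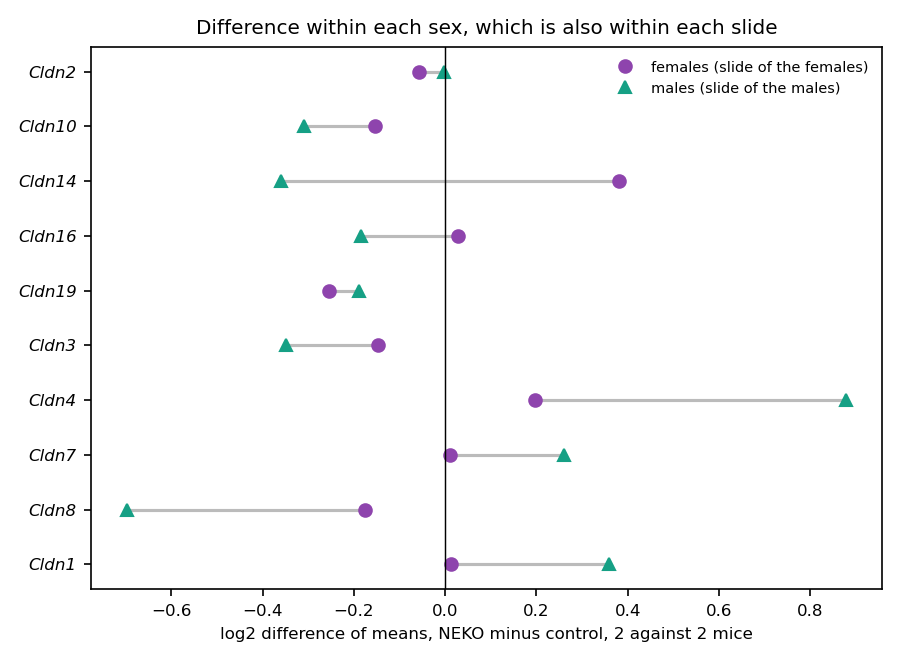
NEKO mean less control mean (horizontal axis, log2 units) for each listed claudin (rows) within the females (circles) and within the males (triangles), 2 mice against 2 in each. Cldn4 and Cldn8 have the male values farthest from 0, at 0.88 and -0.70, against 0.20 and -0.18 in the females.

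The plot of differences by sex shows Cldn4 and Cldn8 each with values of one sign in both sexes and a greater size in the males. The male effect less the female effect was 0.68 for Cldn4 (SE 0.28, adjusted p = 0.47 by limma's interaction term) and -0.52 for Cldn8 (adjusted p = 0.47). No claudin was called for a sex difference, where 0.0153% of all features were (3 of 19593). Without adjustment, limma's interaction term passed 0.05 for Cldn4 among the claudins and for 11.1% of named genes.

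Beside the distal claudins stand the markers of the cells that carry them. The 6 markers of the distal convoluted tubule had a median difference of -0.69, with 4 of 6 lower at an unadjusted p under 0.05, among them Pvalb at -1.12, the sodium-calcium exchanger gene Slc8a1 at -0.98 and the magnesium channel gene Trpm6 at -0.81. Every NEKO mouse was below every control for Slc8a1 alone of the 6, as for 5.09% of named genes. The 8 principal cell markers had a median of -0.29, with 2 of 8 lower, the cortisol-inactivating enzyme gene Hsd11b2 at -0.92 and the sodium channel gene Scnn1b at -0.76. The water channel gene Aqp4, at -0.79 with an SE of 0.62, did not pass. Their mean level was 1.80 to 2.19 in control and 1.00 to 1.98 in NEKO kidneys. All 8 intercalated cell markers were below 0, with a median of -0.90 and 6 of 8 past the unadjusted threshold. Over all named genes tested, 10.2% were lower at that threshold, the share to set beside the counts of these lists. The largest intercalated cell differences by size were Aqp6 at -2.29 (SE 0.77), the chloride-bicarbonate exchanger gene Slc26a4 at -2.07 (SE 0.39) and Slc4a1 at -0.91 (SE 0.61). Aqp6 was well above background on 3 of 4 NEKO arrays and differed by -0.60 within the females and -3.98 within the males. Slc4a1 ran from -0.86 in NEKO replicate 6 to 2.34 in NEKO replicate 5, which was above every control. None of these markers was called. Their part in the values of Cldn3, Cldn4, Cldn7 and Cldn8 was not tested.

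Urothelium, the lining of the renal pelvis, and injured tubule can also express claudins. The 8 urothelial markers, all well above background on every array, had a median difference of 1.12. Of the 8, 6 were higher at an unadjusted p under 0.05, as were 8.14% of named genes. The largest were Krt5 at 1.85 (SE 0.47), Upk2 at 1.80 (SE 0.57) and Krt20 at 1.37 (SE 0.45). The exception to the direction, named after its value was seen, was Upk1a at -0.71 (SE 0.32). Their mean level ran from -3.09 to -1.75 in control and from -1.82 to -0.93 in NEKO kidneys. The median was 0.41 in the females and 2.03 in the males. The medians of the tubular injury, intercalated cell, principal cell, distal convoluted tubule, thick ascending limb and Nrf2 target lists also lay farther from 0 in the males. The 9 tubular injury markers, of which Krt20 is also on the urothelial list, had a median of 0.73, with mean levels of -0.75 to 0.03 in control and 0.01 to 0.52 in NEKO kidneys. Krt19 was at 1.85 (SE 0.41) and Sox9 at 1.65 (SE 0.43), and none of the 9 was called. The part of either list in the value of Cldn4 was not tested.

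**Figure D3:**
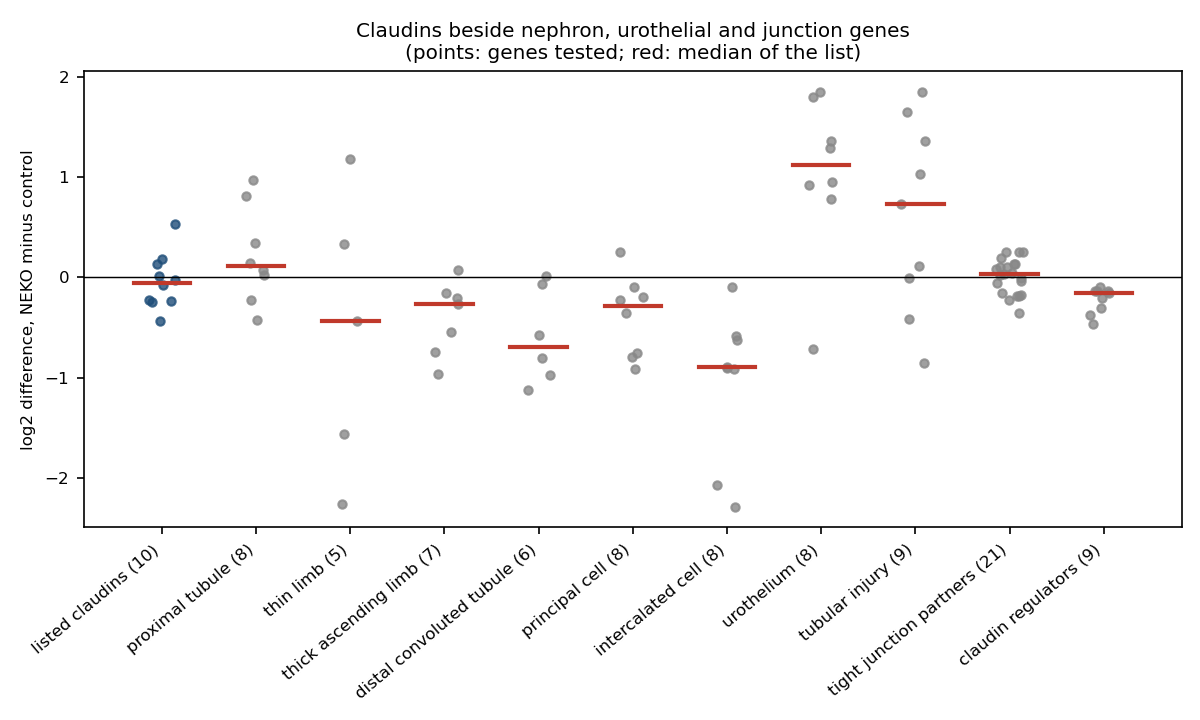
Fitted log2 difference, NEKO minus control, of every tested gene (points) in the listed claudins, their tight junction partners and regulators, and the nephron, urothelium and injury marker lists, with a bar at the list median. The claudins lie between -0.44 and 0.54 with a median of -0.05, while the intercalated cell list has a median of -0.90 and the urothelium list one of 1.12.

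The plot of claudins beside the marker lists sets the claudins, from -0.44 to 0.54, beside lists chosen with earlier results known. The tight junction partners (-0.35 to 0.26) and the regulators (-0.47 to -0.09) spanned less. The median size of the claudins without regard to sign, 0.20, was above the 0.14 of all named genes. Median differences of the remaining lists were -0.43 for the thin limb, 0.22 for podocytes, 0.14 for endothelium, 0.21 for macrophages and 0.10 for lymphocytes. The sexes differed in sign for the thin limb (0.14 in females and -1.01 in males), macrophages (-0.10 and 0.66), lymphocytes (-0.28 and 0.54) and endothelium (-0.01 and 0.16). Within the thin limb list the urea transporter gene Slc14a2 was at -0.25 in the females and -4.28 in the males, and that sex difference was called (adjusted p = 0.035 by limma's interaction term). In the podocyte list 3 of 5 genes were above 0, while Synpo was at -2.45 (SE 0.74). The mean podocyte level ran from 0.05 to 0.80 in control and from -0.37 to 0.35 in NEKO kidneys. In each of the macrophage and lymphocyte lists 3 of 5 tested genes were above 0. Their largest differences by size were Lyz2 at 1.38 (SE 0.57) and Cd8a at -1.28 (SE 0.41). The Nrf2 targets had a median of 1.05, and 2 of their 9 tested genes were called, the glutathione peroxidase gene Gpx2 at 5.40 and the thioredoxin reductase gene Txnrd1 at 1.30. Nqo1 was at 2.62 (SE 0.43) and Srxn1 at 1.47 (SE 0.28), neither of them called. No listed claudin reached the size of the called pair.

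Claudins are held to the cytoskeleton and set in place by scaffold and partner proteins. Of 22 such genes, 21 were tested, none was called, and the median difference was 0.03. Only Tjp1, which encodes the scaffold ZO-1, passed an unadjusted p under 0.05 (0.26, SE 0.07, adjusted p = 0.16 by limma). Over all named genes tested, 18.3% passed that threshold. The largest difference by size was that of Cxadr, a junctional adhesion receptor, at -0.35 (SE 0.17). All 21 lay between -0.35 and 0.26.

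Regulators of claudin expression and placement were listed as well, 11 genes of which 9 were tested. All 9 had fitted differences below 0, from -0.47 to -0.09, with a median of -0.16, and none was called. The transcription factor gene Ovol2 was at -0.47 (SE 0.11, adjusted p = 0.13 by limma) and the kinase gene Wnk4, whose product acts on claudin phosphorylation, at -0.38 (SE 0.15, adjusted p = 0.26 by limma). Wnk1 followed at -0.31. Over all named genes tested, 7317 of 13571 were below 0. The regulator median was -0.007 within the females and -0.40 within the males. The mean regulator level was 1.35 to 1.48 in control and 0.83 to 1.44 in NEKO kidneys.

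**Figure D4:**
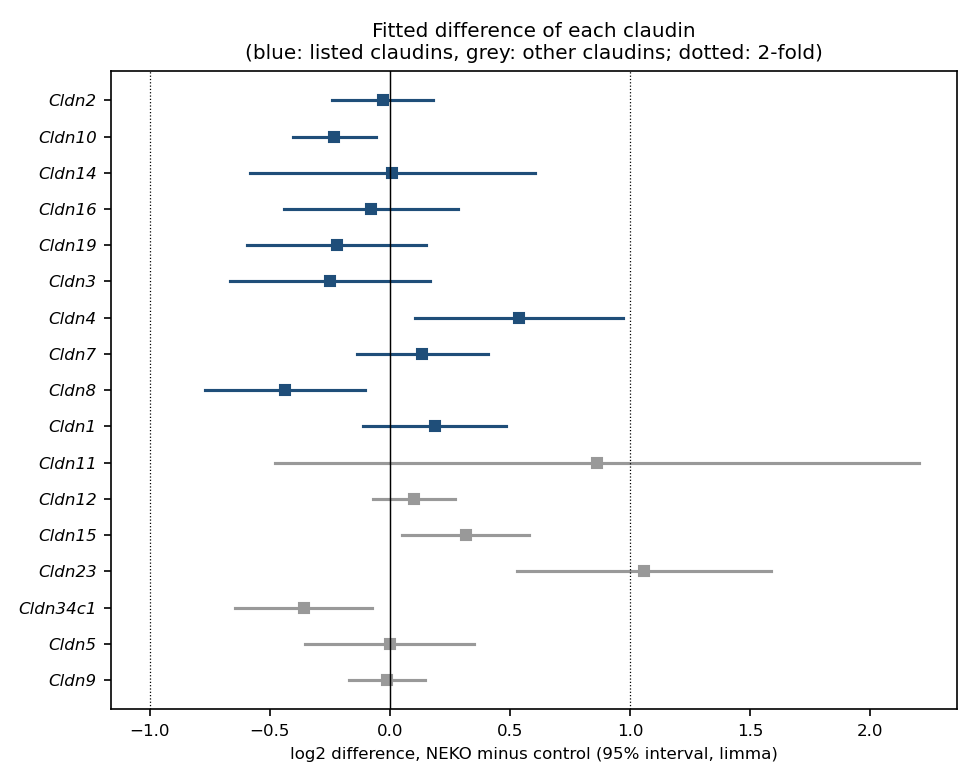
Fitted log2 difference, NEKO minus control, with its 95% interval by limma, for the 10 listed claudins (blue) and the 7 other claudin genes tested (grey). Dotted lines mark 2-fold, and all 10 blue intervals lie between them, as do those of 86.9% of named genes.

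A further 14 claudin genes had a named probe, of which 7 were tested and none was called. The plot of fitted differences shows 2 of these 7, Cldn23 and Cldn15, with every NEKO mouse above every control. Over all named genes tested, the share with every NEKO mouse above every control was 4.49%. Cldn23, a barrier claudin of gut and skin, was at -4.49 and -5.01 in the control females, -5.50 and -4.98 in the control males, -4.25 and -3.84 in the NEKO females, and -3.99 and -3.66 in the NEKO males. It was well above background on 2 of 4 control arrays and on 4 of 4 NEKO arrays, so the NEKO arrays alone carried it past the detection filter and its control level was partly not above background. Its fitted difference was 1.06 (SE 0.22, 95% interval 0.53 to 1.59, adjusted p = 0.11 by limma).

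Cldn15, a cation channel best known from the intestine, was at 0.39 and 0.30 in the control females, 0.03 and 0.25 in the control males, 0.47 and 0.44 in the NEKO females, and 0.58 and 0.74 in the NEKO males. The NEKO males were the highest of all. Its fitted difference was 0.32 (SE 0.11, 95% interval 0.05 to 0.58, adjusted p = 0.22 by limma). Among the other 5, Cldn11 was fitted at 0.86 with an SE of 0.57, and Cldn34c1 at -0.36 (SE 0.12, adjusted p = 0.21 by limma). Cldn12 was at 0.10, Cldn9 at -0.01 and the endothelial Cldn5 at -0.001.

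Nrf2 binds the antioxidant response element, so promoter letters of the claudins were read for its core. RefSeq windows, from 250 bases before to 50 after each start on GRCm38.p6, were found for 9 of the 10 claudins, 14 windows in all, and not for Cldn8. The core TGACNNNGC, searched on both strands, was in 0 of the 14 windows and in 12.4% of all 32851 windows. The AP-1 site TGACTCA, which can overlap that core and was chosen after the sequences were seen, was in 1 of the 14 windows, that of Cldn4, and in 5.2% of all. Cldn4 holds the site at 240 and at 158 bases before its start. Of the other claudins tested, Cldn23 and Cldn9 had no window and were not searched. Among those with a window, only Cldn15 holds the core, at 216 bases before its start, sharing letters with an AP-1 site. These stretches are shown because Cldn4 and Cldn15 are the genes with a match, with chr5:134946935-134947184 on the minus strand for Cldn4 and chr5:136967619-136967868 on the plus strand for Cldn15. Capitals mark the matched letters.
Cldn4: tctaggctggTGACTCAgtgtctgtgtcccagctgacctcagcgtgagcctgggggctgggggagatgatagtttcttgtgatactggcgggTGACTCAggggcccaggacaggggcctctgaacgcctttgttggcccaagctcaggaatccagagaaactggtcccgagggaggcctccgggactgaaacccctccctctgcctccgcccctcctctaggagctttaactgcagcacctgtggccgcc
Cldn15: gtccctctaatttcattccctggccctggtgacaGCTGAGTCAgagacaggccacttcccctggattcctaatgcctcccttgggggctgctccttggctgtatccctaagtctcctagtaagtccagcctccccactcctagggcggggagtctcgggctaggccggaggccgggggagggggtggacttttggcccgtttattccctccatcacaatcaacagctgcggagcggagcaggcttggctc
A match in letters is a description of the window and not a measured site. No match says only that these letters are not in these windows.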

How the data were processed

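Total RNA of 8 kidneys was hybridised by the authors to one-colour Agilent mouse arrays, scanned and read with Agilent Feature Extraction 10.7.3.1. The deposited scanner files hold intensity values, of which the processed signal, already background-corrected, was used. The deposited series matrix holds log2 values made by the authors from the same arrays, with column medians of -0.04 to 0.08. All 328632 values compared lay within 0.01 of the levels computed here once each probe was centred on its median over the arrays. Control spots and outlier spots were left out. Probes were kept where well above background on at least 4 arrays and with a value on at least 6, and named through their RefSeq accession (26690 of 41174 probes, 18217 genes, names from a GRCm38.p6 table). Where several probes of a gene were kept, the one with the highest mean over the arrays stood for the gene. The number of arrays limits the precision.

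R 4.3.3 and limma 3.58.1 were used, with group and sex as terms over all 8 arrays and Benjamini-Hochberg adjustment over 19594 features, and an interaction term for the sex difference. The steps were tested on simulated data. A single gene was also given an exact permutation test over 70 splits. The study's statistical methods name a test for unequal variances, run as an alternative. Named genes were the 10 claudins with all probes, other claudins called or not overlapping, for each list the called genes and up to 3 with the largest difference, and Keap1. The claudins and all lists were chosen with earlier results of these data known. Motif searches used RefSeq promoter windows of the same build, whose coordinates belong to that table and not to the array.

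Alternatives were another background correction, 2 scalings, detection filters, probe averaging, the covariates, the variance model, array weights, the authors' matrix, the test and leaving out each mouse.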

Additional observations from a re-analysis of the deposited data

Results flagged for a closer look

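In groups of 4 mice, a value was noted where the gap between the highest or lowest mouse and its nearest neighbour exceeded Dixon's 95% critical share of the range of the group. Over 34 groups (17 claudins in 2 genotypes) this met 2 values, where chance gives about 1 in 20 groups. Both were in the male NEKO replicate 6. Cldn1 stood at -2.05 there against -2.43 in the nearest NEKO mouse, a gap of 0.90 of the range. On the second Cldn1 probe that mouse, at -2.20, was below NEKO replicate 5, at -1.99. Cldn5, a claudin of endothelium, stood at 0.43 there against 0.60 to 0.64 in the other NEKO mice, a gap of 0.833 of the range.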

How the results depend on the processing

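Over 21 alternatives to the fit, the differences of Cldn4 (0.39 to 0.69), Cldn8 (-0.54 to -0.33) and Cldn10 (-0.27 to -0.18) kept their direction, as did those of Cldn1, Cldn3, Cldn7 and Cldn19. Not all of these alternatives could turn a sign. For Cldn4, Cldn8 and Cldn10, those that changed only the filter, probe averaging, covariates, variance model or test returned the main difference. The authors' matrix holds nearly the same values. Single mice moved the differences. Cldn4 was 0.39 without NEKO replicate 6 and 0.69 without control replicate 1, the K1 control. Cldn8 was -0.33 without control replicate 7 and -0.54 without control replicate 8. Cldn1 was 0.067 and Cldn3 -0.070 without NEKO replicate 6, and Cldn3 was -0.39 without NEKO replicate 5. Cldn7 was 0.048 without control replicate 4 and 0.21 without NEKO replicate 2. Cldn19 was -0.076 without control replicate 7 and -0.38 without control replicate 4. No listed claudin was called in any of the 21 alternatives, with 1 exception: the methods' t-test without adjustment passed Cldn10, so 1 claudin was lower there, and 3 of the other claudin genes passed. Leaving that setting out, adjusted p ran from 0.12 to 0.49 for Cldn4 and from 0.11 to 0.57 for Cldn8. Cldn2 turned sign with quantile normalization (0.0015) and without NEKO replicate 2 (0.020) or 5 (0.0056). Cldn14 turned sign without control replicate 1 (-0.01) or 8 (-0.11) and without NEKO replicate 2 (-0.002), 3 (-0.12) or 5 (-0.10). Cldn16 turned sign without control replicate 7. Leaving out each mouse gave -0.077 to 0.020 for Cldn2, -0.12 to 0.27 for Cldn14 and -0.19 to 0.057 for Cldn16. None of the 10 listed claudins was called for a sex difference in the 17 alternatives with an interaction fit.

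Counts over all named genes, 15 higher and 23 lower, moved more. They were 56 and 82 with normexp, 6 and 12 with detection on all 8 arrays, 9 and 14 with no sex term, 204 and 208 with the effect averaged over the sexes, 34 and 42 with a trend and robust eBayes, 48 and 85 with array weights, 0 and 1 for the methods' t-test after Benjamini-Hochberg and 743 and 882 before it. Leaving out each mouse gave 8 to 19 higher and 7 to 18 lower, the fewest lower without NEKO replicate 6. The cause was not tested. No paired analysis was run, since the labels do not say which mice shared a litter. Slide as a block was not run apart from sex, since the slides divide the mice by sex. With 4 mice in a group, the width of each interval sets what could be detected.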

Other observations

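The genes most like Cldn4 and Cldn8 over the 8 arrays were looked up among 13518 named genes, as a description only, since the arrays share sex, slide and group. For Cldn4 these were Mall (Pearson r = 0.988), which encodes a raft protein, St6gal1 (0.976), a sialyltransferase gene, and Niban2 (0.971). Their own differences were 0.69, 0.36 and 0.28. For Cldn8 these were the adrenergic receptor gene Adra2c (0.995), the lipase gene Abhd6 (0.989) and the interferon-induced Ifit3 (0.987), with differences of -0.75, -0.47 and -0.59. None of the 6 was called by limma (adjusted p from 0.15 to 0.35). Cldn2 minus Cldn10 within each array was -0.47 ± 0.22 (SD, n = 4) in control and -0.27 ± 0.17 (SD, n = 4) in NEKO kidneys, with overlap.

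Cldn13, Cldn17, Cldn18, Cldn22, Cldn34b2, Cldn34b3 and Cldn6 had a named probe but did not pass the detection filter, so no difference is given for them.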
